A study of Mus musculus with 12 samples.

Results

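The 34 genes described here carry the signature of interferon: they are genes that cells switch on when interferons reach them, together with genes that prepare protein fragments for display to T cells. They were chosen by name, with earlier results of these data known. The 3 role groups were 10 interferon-inducible GTPases, 17 genes of the type I interferon response and 7 genes of antigen processing. Of the 34 genes, 33 had a named probe that was measured and tested, out of 25321 genes tested in the series, 16653 of them with a gene symbol. Mx2, an antiviral GTPase, had no named probe and is not analysed here.

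RNA was taken from left-ventricle sections of C57/Bl6 mice and hybridised to 12 single-colour Agilent arrays, 3 in each of 4 groups. The transgenic TAC and transgenic sham groups were mice labelled as overexpressing CnAb1, a splice form of the calcineurin A beta gene, Ppp3cb. Calcineurin is a calcium-dependent phosphatase that acts on transcription factors in heart muscle and T cells. The wild-type TAC and wild-type sham groups carried the genotype label Control. TAC (transverse aortic constriction, a band around the aorta) raises the pressure against which the left ventricle pumps, and sham surgery leaves out the band. By the protocol the mice were killed on day 21 after the operation, although a further label sets the time at 0 for the sham groups. The sources used here do not give the promoter that drives the transgene, and the labels do not say that the arrays of a group came from separate animals. The p-values therefore measure the spread between arrays, which may be technical.

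Interferons signal through receptors and JAK kinases. Type I interferons bring STAT2 and IRF9 into a complex that binds interferon-stimulated response elements, while interferon gamma acts through gamma-activated sites and raises IRF1. The products include sensors of foreign RNA, effectors that block viral growth, guanylate-binding proteins and immunity-related GTPases that attack vacuoles of pathogens, and the immunoproteasome, peptide transporter and beta-2 microglobulin that load class I molecules. In the heart these genes are known from viral myocarditis, infarction and sterile inflammation.

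All 33 tested members stood well above background on all 12 arrays, except that Gbp7, Gbp9, Irf7, Ifit1, Ifi44 and Tap1 did not on transgenic sham array 2. On that array the negative-control spots read 48.6 (net signal), where the other arrays read 15.4 to 21.0, and 37.2% of probes stood well above background, where the others had 60.3% to 78.2%. None of the members was saturated. Before scaling, the 75th percentile of log2 signal was 9.88 to 9.95 on wild-type TAC arrays and 8.98 to 9.24 on wild-type sham arrays; levels below are log2 signals relative to that percentile of the same array. They compare arrays for a gene, not genes with each other. The probe for Ppp3cb gave -0.27 ± 0.09 (log2 difference ± standard error) in transgenic against wild-type sham hearts and 0.15 ± 0.09 in transgenic against wild-type TAC hearts, neither past the test. The sources used here do not say whether that probe lies in the transgene, so it is no check of overexpression.

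The promoters of the members differ in the interferon motifs they hold. In the RefSeq promoter table for GRCm38.p6, which covers 250 bases before to 50 bases after each start, 28 of the 34 members had an entry. The letters GAAA-NN-GAAA, the core of an interferon-stimulated response element, occurred on either strand in 7 of 7 GTPase genes with an entry, in 8 of 15 type I interferon genes and in 1 of 6 antigen-processing genes. The share among all 27025 genes in the table was 3.99%. The letters TTCNNNGAA, a gamma-activated site, occurred in 4 of 7 GTPase genes, 3 of 15 type I interferon genes and 1 of 6 antigen-processing genes, against 9.55% of all genes, and no match of one motif overlapped a match of the other. These are matches of letters, not shown sites. Irf9, Oasl1, Oasl2, Ifi44 and Psmb10, which are all among the genes that rose below, held neither motif in the windows covered.

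The 6 windows shown here all hold a GAAA-NN-GAAA match, so they do not stand for their role groups. Such a match occurred in 8 of 15 type I interferon genes and, of 6 antigen-processing genes, in B2m alone. Matches of GAAA-NN-GAAA and TTCNNNGAA on either strand are in capitals, and the windows are read 5' to 3' on the gene's strand. Isg15 (chr4:156200769-156201068, minus strand) held 3 overlapping GAAA-NN-GAAA matches with first bases at -78, -72 and -66 from the start. Ifit3 (chr19:34583279-34583578, plus strand) held matches at -156 and -122, and Stat2 (chr10:128270248-128270547, plus strand) a match at -222. Gbp7 (chr3:142530086-142530385, plus strand) held GAAA-NN-GAAA at -53 and TTCNNNGAA at -106 and -87. Irgm2 (chr11:58214727-58215026, plus strand) held GAAA-NN-GAAA at -64 and TTCNNNGAA at -75, and B2m (chr2:122147437-122147736, plus strand) GAAA-NN-GAAA at -139.
Isg15: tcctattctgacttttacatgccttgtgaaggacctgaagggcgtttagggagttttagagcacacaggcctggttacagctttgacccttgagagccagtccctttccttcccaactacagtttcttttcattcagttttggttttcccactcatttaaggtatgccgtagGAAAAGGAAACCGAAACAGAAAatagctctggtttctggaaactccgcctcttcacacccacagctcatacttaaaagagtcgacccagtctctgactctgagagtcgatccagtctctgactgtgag
Ifit3: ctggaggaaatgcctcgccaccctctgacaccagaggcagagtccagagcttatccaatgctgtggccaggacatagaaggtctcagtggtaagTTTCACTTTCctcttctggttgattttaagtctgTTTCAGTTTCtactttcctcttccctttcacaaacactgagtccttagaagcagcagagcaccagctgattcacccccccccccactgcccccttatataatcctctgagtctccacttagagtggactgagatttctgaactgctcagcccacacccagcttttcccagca
Stat2: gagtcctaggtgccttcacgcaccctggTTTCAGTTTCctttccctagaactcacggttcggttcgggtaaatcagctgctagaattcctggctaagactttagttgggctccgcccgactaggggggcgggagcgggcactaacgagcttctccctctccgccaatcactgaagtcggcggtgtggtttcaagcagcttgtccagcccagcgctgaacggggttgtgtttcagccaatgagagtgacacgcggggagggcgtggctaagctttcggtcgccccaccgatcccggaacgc
Gbp7: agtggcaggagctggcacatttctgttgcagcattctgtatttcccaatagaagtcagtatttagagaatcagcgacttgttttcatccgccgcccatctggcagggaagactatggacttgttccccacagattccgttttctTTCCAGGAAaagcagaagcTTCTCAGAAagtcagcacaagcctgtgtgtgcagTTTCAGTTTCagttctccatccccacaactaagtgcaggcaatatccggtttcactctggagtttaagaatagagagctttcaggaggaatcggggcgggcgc
Irgm2: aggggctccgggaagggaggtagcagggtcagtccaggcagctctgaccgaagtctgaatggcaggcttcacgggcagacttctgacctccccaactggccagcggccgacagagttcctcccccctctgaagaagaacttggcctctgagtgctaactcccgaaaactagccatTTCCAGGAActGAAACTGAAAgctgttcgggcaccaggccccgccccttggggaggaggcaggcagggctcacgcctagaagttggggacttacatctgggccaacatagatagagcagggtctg
B2m: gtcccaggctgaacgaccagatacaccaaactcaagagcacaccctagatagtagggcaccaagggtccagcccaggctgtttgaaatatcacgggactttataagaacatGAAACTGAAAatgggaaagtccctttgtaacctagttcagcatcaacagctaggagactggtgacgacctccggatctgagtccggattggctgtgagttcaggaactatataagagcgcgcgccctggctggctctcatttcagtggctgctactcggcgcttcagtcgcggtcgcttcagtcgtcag

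The first question was whether pressure overload raised these genes in wild-type hearts. It did so mainly for the type I interferon genes: 14 of 16 rose, with a median log2 difference of 0.97 over the 16, about a doubling. Antigen-processing genes followed with smaller differences, 2 of 7 rising and a median of 0.49, and none of the 10 GTPases passed (median 0.22). In all, 16 of 33 members rose and none fell, where 8.86% of all genes rose, 12.6% fell and the median of all genes was -0.12. As the list was chosen with earlier results known, the shares set beside it are a description. A gene passed at an adjusted p under 0.05 in limma with Benjamini-Hochberg adjustment over all 25321 genes. The wild-type TAC and wild-type sham arrays did not overlap for 27 members that were higher and 1, Gbp6, that was lower, against 17.7% of all genes higher and 29% lower. In a tissue sample, more cells of a type and more RNA per cell cannot be told apart.

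The slides on which the arrays were hybridised did not hold the groups evenly, and with slide as a fixed block only Oasl2 passed (1.31, adjusted p = 0.0494), with a type I median of 0.98. With slide as a random block 14 members passed, all of them type I interferon genes, with a type I median of 0.93. Wild-type sham array 3 was alone on slide 5, and wild-type TAC arrays 1 and 3 lay on slide 2, without a wild-type sham array. Among wild-type hearts, group and slide cannot be told apart for these arrays. Within slide 3, which held 1 wild-type TAC and 2 wild-type sham arrays, all 16 type I interferon genes were higher after TAC, with a median of 0.96. The count of 16 was 9 when array 1 or array 3 of the wild-type sham group was left out, and 10 without wild-type TAC array 3.

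**Figure D1:**
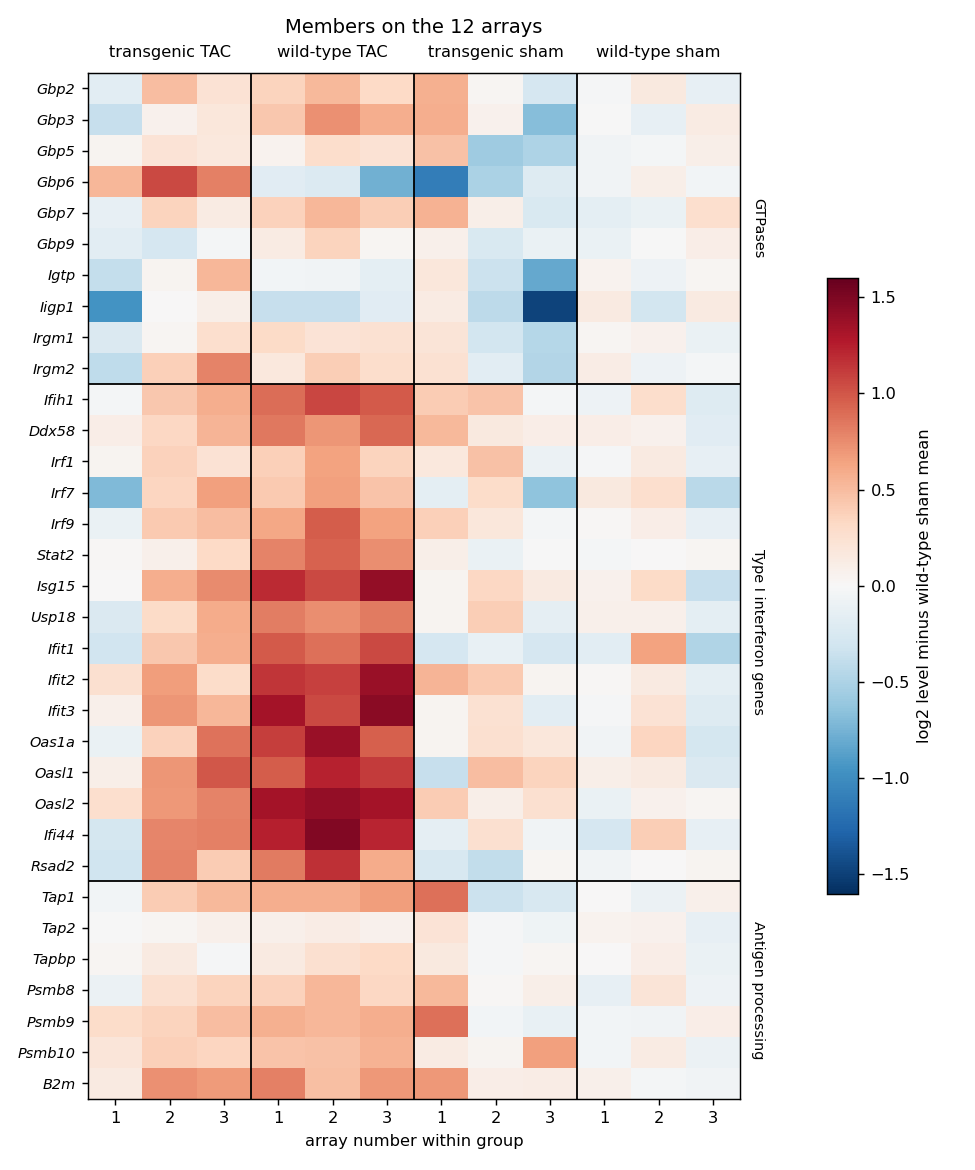
The 33 members (rows, in 3 role groups) on the 12 arrays (columns, 3 per group), coloured by log2 level minus the wild-type sham mean, red for higher and blue for lower. The type I interferon genes form a red block on the wild-type TAC arrays, with role-group means of 0.93 to 1.03 there.

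Among the type I interferon genes, the sensors of viral RNA came first in the pathway and both rose in wild-type hearts. Ddx58 (RIG-I, which detects short RNA with a free end) stood at 0.15, 0.02 and 0.23 on the wild-type TAC arrays, against -0.59, -0.61 and -0.86 on the wild-type sham arrays. Its log2 difference was 0.82 ± 0.16 (adjusted p = 0.00638), and a dimmer probe for Ddx58 gave 0.82 as well. Ifih1 (MDA-5, which detects long double-stranded RNA) rose by 0.98 ± 0.20 (adjusted p = 0.00842). The groups of these genes were fully separated.

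Of the 4 transcription factors, Stat2 and Irf9, which act in the type I complex, rose. Stat2 stood at 0.26, 0.41 and 0.21 on the wild-type TAC arrays and at -0.57, -0.53 and -0.51 on the wild-type sham arrays, a difference of 0.83 ± 0.11 (adjusted p = 0.00198). Irf9, the DNA-binding part of the complex, rose by 0.74 ± 0.18 (adjusted p = 0.0188). Irf1, the factor closest to interferon gamma, gave 1.49, 1.76 and 1.46 on wild-type TAC arrays and 1.09, 1.26 and 0.97 on wild-type sham arrays. These groups did not overlap, yet the difference of 0.46 ± 0.16 did not pass (adjusted p = 0.0739), and a dimmer probe for Irf1, above background on 7 arrays, gave -0.96. Irf7, the amplifier of interferon production, gave -1.55, -1.31 and -1.51 after TAC and -1.81, -1.69 and -2.39 after sham, without overlap (0.51 ± 0.36, adjusted p = 0.363).

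Isg15 encodes a ubiquitin-like protein that is attached to other proteins, and Usp18 the protease that removes it and dampens the type I receptor. Both rose in wild-type hearts. Isg15 stood at 2.30, 2.17 and 2.52 on the wild-type TAC arrays and at 1.18, 1.41 and 0.74 on the wild-type sham arrays, a 2.33-fold difference (1.22 ± 0.22, adjusted p = 0.00559). Its dimmer probe gave 1.32. Usp18 rose by 0.80 ± 0.21 (adjusted p = 0.0232).

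All 8 measured effectors rose in wild-type hearts, by 0.86 to 1.36. Oasl2, a relative of the enzymes that make oligoadenylates to activate RNase L, had the smallest p of the members: -0.03, 0.04 and -0.03 on wild-type TAC arrays against -1.46, -1.30 and -1.33 on wild-type sham arrays. Its difference was 1.36 ± 0.15, or 2.56-fold (adjusted p = 0.000861), and it passed in all 29 alternative settings.

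The Ifit genes encode proteins that bind foreign RNA and block its translation. Ifit2 stood at -0.74, -0.79 and -0.51 on the wild-type TAC arrays and at -1.87, -1.74 and -2.05 on the wild-type sham arrays (1.21 ± 0.17, adjusted p = 0.00218). Ifit3 stood at 0.93, 0.66 and 1.05 after TAC and at -0.41, -0.16 and -0.60 after sham (1.27 ± 0.19, adjusted p = 0.00289). Both were separated by more than the whole range within either group. Ifit1 rose by 0.97 ± 0.29 (adjusted p = 0.041).

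The remaining effectors moved by similar amounts. Oas1a and Oasl1, of the oligoadenylate synthetase family, rose by 1.14 ± 0.25 (adjusted p = 0.0106) and 1.11 ± 0.27 (adjusted p = 0.017). Ifi44, an interferon-induced protein of the cytoplasm, rose by 1.31 ± 0.29 (adjusted p = 0.0119). Rsad2, the antiviral enzyme viperin, rose by 0.86 ± 0.26 (adjusted p = 0.0407). The calls of Rsad2 and Ifit1 stood near the threshold: Rsad2 passed in 14 of 29 alternative settings and Ifit1 in 13 of 28. Neither passed without any of the wild-type TAC arrays or wild-type sham arrays 1 and 3, each left out in turn. Oas1a, Ifit3, Gbp6 and some other members have close copies in the mouse genome, and whether their probes also catch those copies was not tested.

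In transgenic hearts no member passed after the same operation. Nor did any of the 25321 genes (0% called), while 6.24% had an unadjusted p under 0.05, among them 2 members, Gbp6 and Oasl2. The median log2 difference was 0.24 for the type I interferon genes, 0.03 for the antigen-processing genes and 0.25 for the GTPases, beside -0.01 for all genes. All 16 type I interferon genes lay above 0, where 48.1% of all genes did, from 0.03 for Irf1 to 0.50 for Rsad2. Isg15, for example, gave 0.28 with a 95% interval from -0.22 to 0.78, while its dimmer probe, above background on 11 arrays, gave 0.75. Transgenic sham array 3 was the only array on slide 1. Slide 2 held 1 transgenic TAC and 1 transgenic sham array. The median difference there was 0.52 for the type I interferon genes, -0.16 for the antigen-processing genes and -0.07 for the GTPases. The type I median was 0.47 with slide as a fixed block and 0.34 with slide as a random block.

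**Figure D2:**
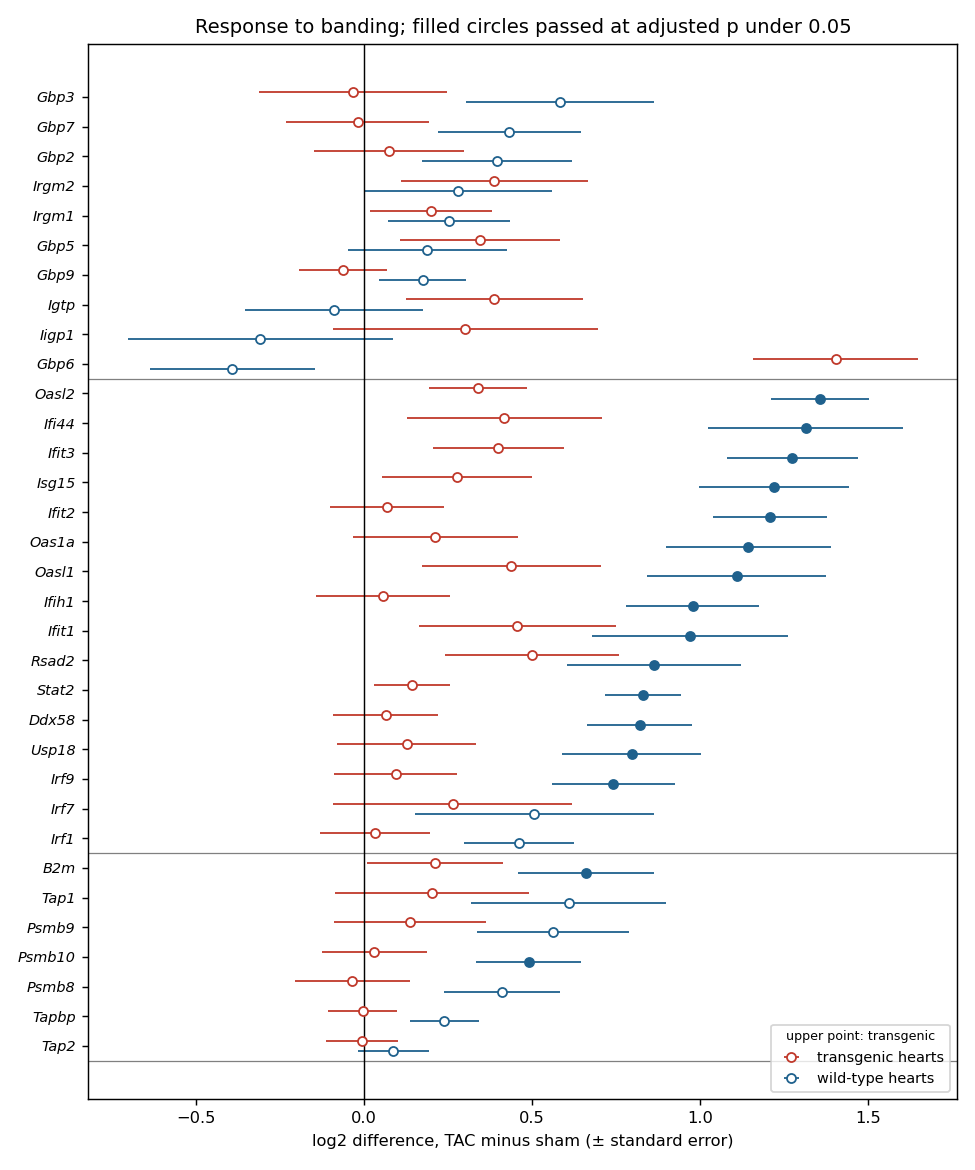
Log2 difference between TAC and sham arrays, with its standard error, for each member in transgenic hearts (upper point, red) and wild-type hearts (lower point, blue); filled circles passed at an adjusted p under 0.05. In the type I interferon genes the transgenic points lie between 0.03 and 0.50 and the wild-type points between 0.46 and 1.36; Gbp6 is the reverse, at 1.40 in transgenic hearts and -0.39 in wild-type hearts.

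The direct comparison of transgenic with wild-type hearts after TAC found 5 members past the test, 1 higher and 4 lower, where 2.25% of all genes were higher and 1.91% lower. The 4 lower genes were Stat2, Oasl2, Ifit2 and Ifit3, and the higher one was Gbp6. All 16 type I interferon genes were below 0, with a median of -0.67 beside 0.05 for all genes, of which 55.2% lay above 0. The transgenic TAC and wild-type TAC arrays did not overlap for 18 members that were lower and for Gbp6, which was higher, against 13.6% and 19.5% of all genes. Within slide 2, with 1 transgenic TAC and 2 wild-type TAC arrays, 15 of 16 type I interferon genes were lower, with a median of -0.34; with slide as a fixed block the median was -0.38 and no member passed, and with slide as a random block it was -0.59 and 4 members passed, 1 higher and 3 lower. Transgenic TAC arrays 1 and 2 were the only arrays on slide 4, so for these arrays group and slide cannot be told apart. The 5 calls became 0 without transgenic TAC array 1 or wild-type TAC array 1. They became 1 without transgenic TAC array 2 or wild-type TAC array 3, and 2 without transgenic TAC array 3, wild-type TAC array 2 or any of the 3 wild-type sham arrays. They were 0 when only the groups compared entered the fit. The calls held in 23 of 29 alternative settings for Stat2, 19 for Oasl2, 15 for Ifit2, 15 for Gbp6 and 11 for Ifit3.

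Stat2 stood at -0.52, -0.46 and -0.21 on the transgenic TAC arrays, against 0.26, 0.41 and 0.21 on the wild-type TAC arrays. All transgenic TAC values lay below all wild-type TAC values and overlapped with the transgenic sham arrays, which gave -0.44, -0.64 and -0.54. The genotype difference after TAC was -0.69 ± 0.11 (adjusted p = 0.016). Oasl2 gave -1.09, -0.67 and -0.56 on transgenic TAC arrays and -0.03, 0.04 and -0.03 on wild-type TAC arrays (-0.77 ± 0.15, adjusted p = 0.0251). The transgenic sham arrays stood at -0.96, -1.27 and -1.11 for Oasl2. These overlapped with the transgenic TAC arrays, as array 1 after TAC lay among them.

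Ifit2 gave -1.63, -1.22 and -1.59 on transgenic TAC arrays, against -0.74, -0.79 and -0.51 on wild-type TAC arrays (-0.80 ± 0.17, adjusted p = 0.0348); the transgenic sham arrays stood at -1.34, -1.47 and -1.84. Ifit3 gave -0.31, 0.32 and 0.14 against 0.93, 0.66 and 1.05 on the same pairs of groups (-0.83 ± 0.19, adjusted p = 0.0458). For Ifit3 the transgenic sham arrays gave -0.35, -0.14 and -0.56. In both Ifit genes every transgenic TAC array was below every wild-type TAC array. Isg15, with 1.12, 1.69 and 1.87 on transgenic TAC arrays and 2.30, 2.17 and 2.52 on wild-type TAC arrays, did not pass (-0.77 ± 0.22, adjusted p = 0.0807), although its arrays did not overlap either. Its transgenic sham arrays stood at 1.16, 1.44 and 1.26.

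The remaining transcription factors and sensors showed the same direction without passing. Ddx58 gave -0.58, -0.35 and -0.15 on transgenic TAC arrays, against 0.15, 0.02 and 0.23 on wild-type TAC arrays (-0.49 ± 0.16, adjusted p = 0.0984), and -0.17, -0.53 and -0.58 on transgenic sham arrays. Irf1 gave 1.15, 1.48 and 1.33 on transgenic TAC arrays, against 1.49, 1.76 and 1.46 on wild-type TAC arrays. Its transgenic sham arrays stood at 1.28, 1.57 and 1.01. Irf7 was widely spread, with -2.67, -1.62 and -1.31 on transgenic TAC arrays and -2.12, -1.67 and -2.61 on transgenic sham arrays. The Irf1 and Irf7 differences between transgenic and wild-type hearts after TAC were -0.25 ± 0.16 (adjusted p = 0.41) and -0.41 ± 0.36 (adjusted p = 0.551).

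**Figure D3:**
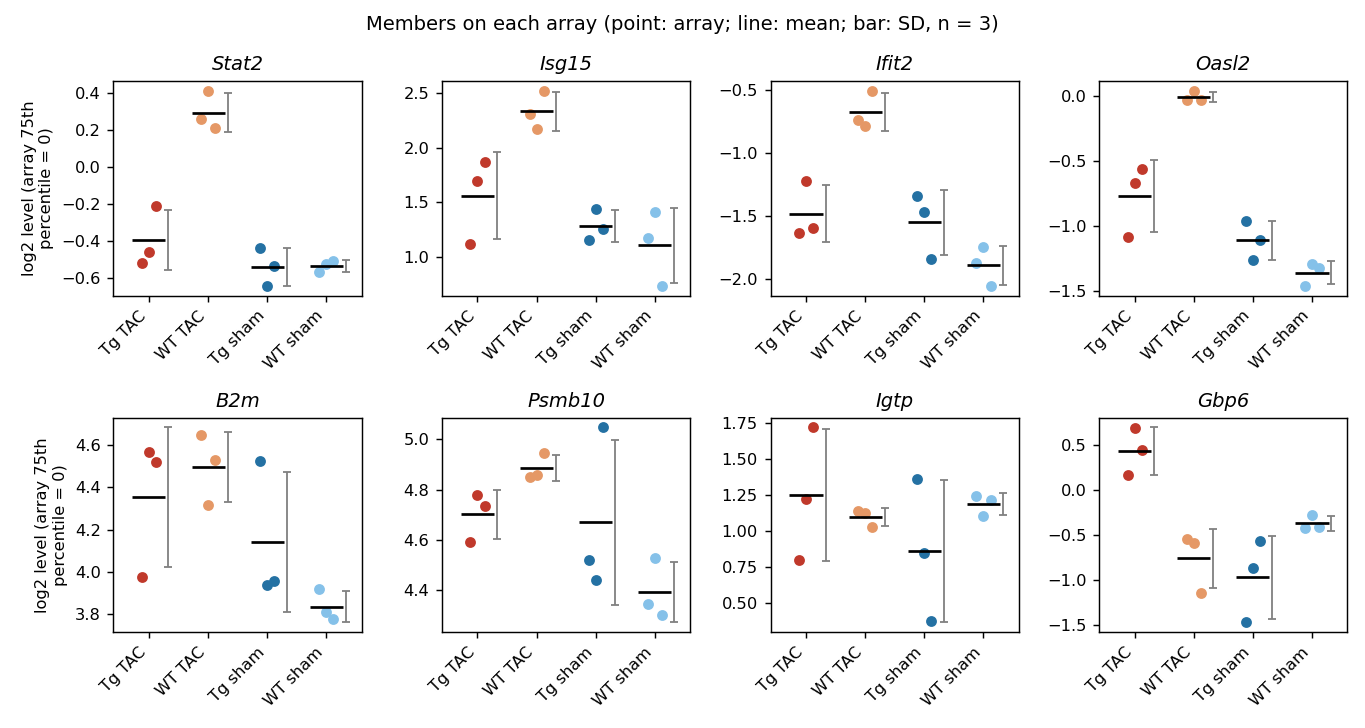
Log2 level of 8 members on each array (points), with the group mean (line) and SD over 3 arrays (bar); Tg is transgenic and WT is wild type. The wild-type TAC points stand above the other groups for Stat2, Isg15, Ifit2 and Oasl2, while for Gbp6 the transgenic TAC points, 0.17 to 0.69, stand above the rest.

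The interaction asked directly whether the TAC response differed between genotypes, as the transgenic response minus the wild-type response. It passed for 4 members: Gbp6 was higher (1.79 ± 0.35, adjusted p = 0.0235), and Oasl2 (-1.02 ± 0.21, adjusted p = 0.025), Ifit2 (-1.14 ± 0.24, adjusted p = 0.027) and Stat2 (-0.69 ± 0.16, adjusted p = 0.0354) were lower. Over all genes, 4.22% were higher and 3.07% lower. The estimate was below 0 for 16 of 16 type I interferon genes (median -0.72), 7 of 7 antigen-processing genes (median -0.43) and 5 of 10 GTPases (median 0.03), where the median of all genes was 0.09 and 56.1% lay above 0. The 5 comparisons share arrays, so their values for a gene are not independent of each other. The 4 calls became 0 without wild-type TAC array 3 or any wild-type sham array, 1 without wild-type TAC array 1, and 2 without transgenic TAC array 1 or transgenic sham array 2. With slide as a fixed block the type I median was -0.48 and no member passed. With slide as a random block it was -0.65 and 4 members passed, 1 higher and 3 lower. The interaction calls held in 22 of 29 alternative settings for Gbp6, 20 for Oasl2, 17 for Ifit2 and 14 for Stat2.

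After sham surgery, transgenic and wild-type hearts did not differ past the test for any member, where 1.4% of all genes did, and 1 member, Gbp6, had an unadjusted p under 0.05 against 17.2% of all genes. The medians were 0.16 for the type I interferon genes, 0.21 for the antigen-processing genes and -0.16 for the GTPases, beside -0.04 for all genes. Oasl2, for example, differed by 0.25 with a 95% interval from -0.08 to 0.57, and Stat2 by -0.00 with an interval from -0.26 to 0.25. On slide 3, with 1 transgenic sham array, the one of raised background, and 2 wild-type sham arrays, the type I median was 0.13.

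Antigen processing begins in the proteasome. In wild-type hearts the 3 inducible catalytic subunits of the immunoproteasome differed by 0.41 to 0.56 between TAC and sham, and Psmb10 passed. Psmb10 stood at 4.85, 4.86 and 4.94 on wild-type TAC arrays and at 4.35, 4.53 and 4.30 on wild-type sham arrays (0.49 ± 0.16, adjusted p = 0.0496). It stood at 4.59, 4.78 and 4.73 on transgenic TAC arrays and at 4.52, 4.44 and 5.05 on transgenic sham arrays. Psmb8 gave 1.03, 1.19 and 0.99 on wild-type TAC arrays and 0.53, 0.87 and 0.58 on wild-type sham arrays (0.41 ± 0.17, adjusted p = 0.123). On transgenic arrays Psmb8 gave 0.57, 0.92 and 1.02 after TAC and 1.18, 0.67 and 0.76 after sham, which overlapped. Psmb9 differed by 0.56 ± 0.23 between wild-type groups (adjusted p = 0.108).

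Of the constitutive subunits that these 3 replace, Psmb6 (-0.44 ± 0.11, adjusted p = 0.0223) and Psmb7 (-0.45 ± 0.10, adjusted p = 0.0103) fell in wild-type hearts, and Psmb5 gave -0.31 ± 0.11 (adjusted p = 0.0842). Set against its constitutive partner on the same array and against the wild-type sham mean, Psmb8 over Psmb5 averaged 0.42 ± 0.16 in transgenic TAC hearts, 0.72 ± 0.07 in wild-type TAC hearts and 0.39 ± 0.43 in transgenic sham hearts on the log2 scale (SD, n = 3 each). Psmb9 over Psmb6 averaged 0.67 ± 0.07, 1.01 ± 0.14 and 0.53 ± 0.71 in these groups, and Psmb10 over Psmb7 averaged 0.48 ± 0.11, 0.94 ± 0.16 and 0.51 ± 0.30. Every wild-type TAC array lay above every transgenic TAC array in all 3 ratios. Such a ratio shows unequal change of the 2 subunits and was not tested.

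**Figure D4:**
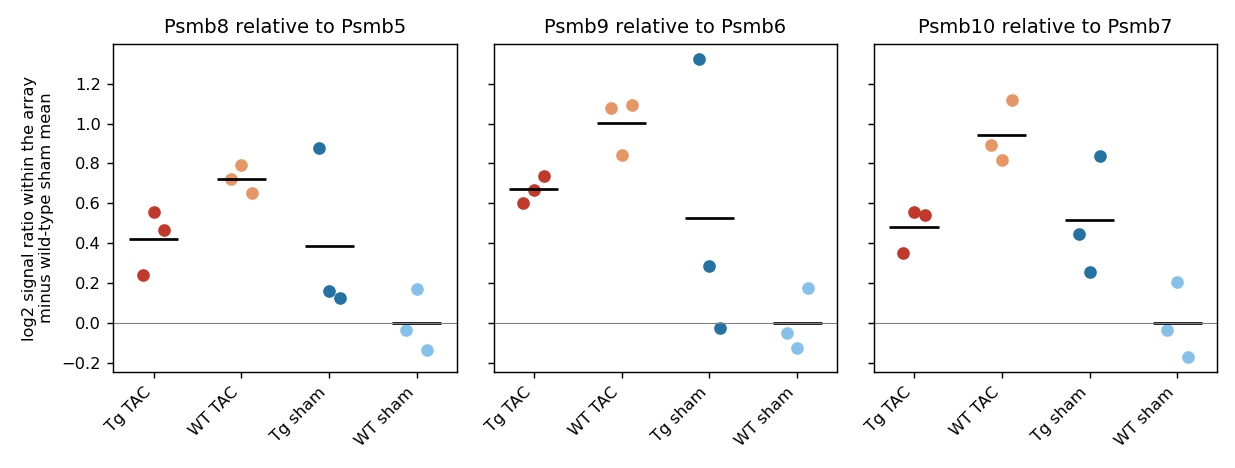
Log2 ratio of each inducible proteasome subunit to the constitutive subunit it replaces on the same array, minus the wild-type sham mean; points are arrays, lines group means, Tg transgenic and WT wild type. Wild-type TAC arrays lie between 0.65 and 1.12, and transgenic sham arrays are spread from -0.02 to 1.32.

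Peptides are then carried by the Tap1 and Tap2 transporter and loaded with the help of Tapbp (tapasin). None of these 3 genes passed in any comparison. Tap1 gave -3.02, -3.02 and -2.93 on wild-type TAC arrays and -3.59, -3.69 and -3.51 on wild-type sham arrays, which did not overlap (0.61 ± 0.29, adjusted p = 0.172). On transgenic arrays Tap1 gave -3.64, -3.19 and -3.08 after TAC and -2.71, -3.94 and -3.86 after sham, so that transgenic sham array 1 exceeded all others. Tapbp gave 2.06, 2.18 and 2.24 on wild-type TAC arrays and 1.92, 2.03 and 1.81 on wild-type sham arrays (0.24 ± 0.10, adjusted p = 0.134). It gave 1.95, 2.07 and 1.91 on transgenic TAC arrays and 2.08, 1.90 and 1.96 on transgenic sham arrays. Tap2 differed least, by 0.09 ± 0.11 between wild-type groups.

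B2m, the light chain shared by all class I molecules, rose in wild-type hearts. It stood at 4.65, 4.32 and 4.53 on wild-type TAC arrays and at 3.92, 3.81 and 3.78 on wild-type sham arrays (0.66 ± 0.20, adjusted p = 0.0426). Transgenic TAC arrays gave 3.98, 4.57 and 4.52 and transgenic sham arrays 4.53, 3.94 and 3.96, so that each transgenic group held both low and high arrays. The calls of B2m and Psmb10 stood near the threshold: B2m passed in 16 and Psmb10 in 10 of 29 alternative settings, with adjusted p up to 0.353 and 0.377. Neither passed when any wild-type TAC or wild-type sham array was left out. Psmb10 also did not pass when any transgenic TAC array or transgenic sham array 1 was left out, and B2m did not without transgenic TAC array 3. The antigen-processing median in wild-type hearts was 0.30 with slide as a fixed block, 0.46 with slide as a random block and 0.45 within slide 3.

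None of the GTPases passed for TAC in either genotype, although 7 of 10 lay above 0 in wild-type hearts and the arrays of 5 stood wholly higher after TAC, where 17.7% of all genes did. They comprise guanylate-binding proteins (Gbp genes) and immunity-related GTPases (Igtp, Iigp1, Irgm1, Irgm2), which in mice respond mainly to interferon gamma and act on pathogen vacuoles. In wild-type hearts their differences ran from -0.39 for Gbp6 to 0.58 for Gbp3. Gbp3 gave 0.18, 0.47 and 0.32 on wild-type TAC arrays and -0.26, -0.39 and -0.12 on wild-type sham arrays (0.58 ± 0.28, adjusted p = 0.175). Gbp7 gave -1.62, -1.45 and -1.59 on wild-type TAC arrays and -2.14, -2.10 and -1.72 on wild-type sham arrays (0.43 ± 0.21, adjusted p = 0.186). Both were separated between the wild-type groups. On transgenic arrays Gbp3 gave -0.63, -0.18 and -0.08 after TAC and 0.33, -0.18 and -0.93 after sham. Gbp7 gave -2.12, -1.63 and -1.85 after TAC and -1.43, -1.89 and -2.23 after sham. The transgenic groups overlapped for both genes.

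Igtp and Iigp1 were higher on some sham arrays than on TAC arrays. Igtp gave 0.80, 1.22 and 1.72 on transgenic TAC arrays and 1.36, 0.84 and 0.37 on transgenic sham arrays (0.39 ± 0.26, adjusted p = 0.81). Its wild-type TAC arrays stood at 1.14, 1.13 and 1.03 and its wild-type sham arrays at 1.24, 1.10 and 1.22, a narrow range in both. Iigp1 was widely spread, with -0.68, 0.29 and 0.37 on transgenic TAC arrays and 0.41, -0.13 and -1.21 on transgenic sham arrays. It gave -0.09, -0.08 and 0.09 on wild-type TAC arrays and 0.42, -0.01 and 0.42 on wild-type sham arrays (-0.31 ± 0.39, adjusted p = 0.653).

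Gbp6 was the GTPase that passed between genotypes after TAC and for the interaction. It stood at 0.17, 0.69 and 0.45 on transgenic TAC arrays, against -0.55, -0.59 and -1.14 on wild-type TAC arrays, a 2.28-fold difference (1.19 ± 0.25, adjusted p = 0.0323). The transgenic sham arrays gave -1.47, -0.87 and -0.57 and the wild-type sham arrays -0.42, -0.27 and -0.41. All transgenic TAC arrays were above all others. Between transgenic TAC and transgenic sham hearts Gbp6 differed by 1.40 ± 0.25, with an unadjusted p of 0.000209 that did not pass after adjustment (0.674). A dimmer Gbp6 probe gave 1.04 for transgenic TAC against sham, 1.14 for transgenic against wild type after TAC and 1.15 for the interaction. In the other comparisons the dimmer probe gave smaller differences than the main one. For the wild-type response it gave -0.11, beside -0.39 for the main probe. Between genotypes after sham surgery it gave -0.02, beside -0.60. Within slide 2 the genotype difference after TAC was 1.29. The interaction call of Gbp6 was lost without wild-type TAC array 3 or any wild-type sham array.

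Gbp10 is the neighbour of Gbp6 on chromosome 5 in the gene order of GRCm38.p6, and belongs to a list of other interferon-induced genes. It gave -1.15, -0.97 and -0.87 on transgenic TAC arrays, against -1.45, -1.64 and -1.72 on wild-type TAC arrays (0.61 ± 0.11, adjusted p = 0.0251). Its transgenic sham arrays stood at -1.33, -1.49 and -1.53 and its wild-type sham arrays at -1.17, -1.20 and -1.19. Gbp10 fell in wild-type hearts (-0.42 ± 0.11, adjusted p = 0.0291) and its interaction was 0.87 ± 0.16 (adjusted p = 0.0217). Gbp4 and Gbp9, of the same run of genes, did not pass in any comparison; after TAC their genotype differences were -0.40 ± 0.26 and -0.33 ± 0.13. Gbp6 and Gbp10 are close in sequence, and whether a probe of either also binds the other was not tested.

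Over the members as a whole, the arrays of transgenic hearts were more spread than those of wild-type hearts. The spread over all genes is not set beside this. Over all members the median within-group SD was 0.30 for transgenic TAC arrays, 0.11 for wild-type TAC arrays, 0.28 for transgenic sham arrays and 0.13 for wild-type sham arrays. For the type I interferon genes the sham groups were close, at 0.21 in transgenic and 0.18 in wild-type hearts. The transgenic sham group includes the array of raised background. Transgenic TAC array 1 was the lowest of its group for 31 of 33 members and for 16 of 16 type I interferon genes. The mean of the 16 type I interferon genes relative to the wild-type sham mean ran from -0.07 to 0.59 on transgenic TAC arrays, from 0.93 to 1.03 on wild-type TAC arrays, from -0.02 to 0.21 on transgenic sham arrays and from -0.19 to 0.20 on wild-type sham arrays. Transgenic sham array 1 was the highest of its group for 9 of 10 GTPases and 6 of 7 antigen-processing genes, but for only 5 of 16 type I interferon genes. As a description over the 12 arrays, deviations from the group means had a median correlation of 0.72 among the 45 GTPase pairs, 0.59 among the 120 type I pairs and 0.40 between the GTPases and the type I interferon genes. The values of an array share its RNA and scaling.

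**Figure D5:**
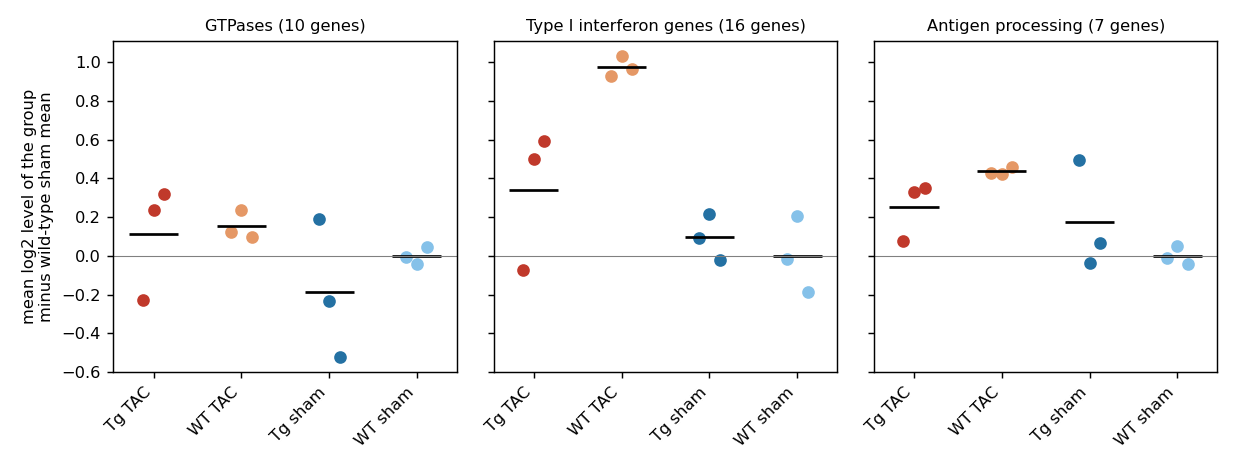
Mean log2 level of each role group on each array (points) minus the wild-type sham mean, with the group mean as a line; Tg is transgenic and WT is wild type. The type I interferon genes stand apart on wild-type TAC arrays (0.93 to 1.03), whereas the GTPases overlap between groups, with 0.10 to 0.24 on wild-type TAC arrays and -0.52 to 0.19 on transgenic sham arrays.

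Other genes of the pathway were taken from lists by role. Of 40 other interferon-induced genes 34 were measured, and in wild-type hearts 16 rose and 1, Gbp10, fell, with a median of 0.57. The shares over all genes were 8.86% rising and 12.6% falling. Cxcl10, a chemokine that draws T cells, rose by 2.59 ± 0.49 (adjusted p = 0.00643), with -1.77, -3.70 and -1.58 on wild-type TAC arrays and -4.85, -5.33 and -4.65 on wild-type sham arrays. Trim30a, a negative regulator of inflammatory signalling in mice, rose by 1.09 ± 0.14 (adjusted p = 0.00164), and Eif2ak2, the RNA-activated kinase PKR, by 0.62 ± 0.11 (adjusted p = 0.00537). Between transgenic and wild-type hearts after TAC, Gbp10 was higher, and Trim30a (-0.64 ± 0.14, adjusted p = 0.0398) and Eif2ak2 (-0.54 ± 0.11, adjusted p = 0.0329) were lower. The same 3 genes passed for the interaction, Gbp10 upwards and both others downwards, where 4.22% of all genes were higher and 3.07% lower.

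Of the interferons themselves, Ifna1 and Ifna2 stood well above background on 11 of 12 arrays and did not pass in any comparison. Ifnb1 and Ifnk stood well above background on 0 of 12 arrays, Ifna4 on 1 and Ifng on 2, and these 4 were not tested. Of the 7 ligand and receptor genes tested, Ifngr1, the ligand-binding chain for interferon gamma, rose in wild-type hearts (0.67 ± 0.19, adjusted p = 0.034), while Ifngr2 (-0.55 ± 0.16, adjusted p = 0.0411) and Il10rb (-0.52 ± 0.13, adjusted p = 0.0221) fell. Among all genes 8.86% rose and 12.6% fell in that comparison. The type I receptor chains Ifnar1 and Ifnar2 gave 0.40 ± 0.17 and 0.02 ± 0.11, neither past the test.

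Among 9 genes of nucleic acid sensing, 3 rose and 2 fell in wild-type hearts, where 8.86% of all genes rose and 12.6% fell. Dhx58 (LGP2, a partner of the RNA sensors) rose by 1.39 ± 0.20 (adjusted p = 0.00242), Tmem173 (STING, the adaptor of DNA sensing) by 1.15 ± 0.18 (adjusted p = 0.00332) and Zbp1 by 0.91 ± 0.25 (adjusted p = 0.0297). Mavs, the adaptor of the RNA sensors, gave -0.50 ± 0.14 (adjusted p = 0.0332) and Tlr7 -0.73 ± 0.19 (adjusted p = 0.0286). Dhx58 also passed for the interaction, at -1.25 ± 0.28 (adjusted p = 0.0336).

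Of 13 kinases, STATs and regulators, 3 rose and 1 fell in wild-type hearts, where 8.86% of all genes rose and 12.6% fell. Socs1, a feedback inhibitor of the JAK kinases, rose by 0.78 ± 0.16 (adjusted p = 0.00779), and the factors Irf8 and Irf5 by 0.76 ± 0.21 and 0.56 ± 0.15 (adjusted p = 0.0299 and 0.0277). Nlrc5, the activator of class I genes, fell (-0.71 ± 0.17, adjusted p = 0.0179). Of 20 other antigen presentation genes, H2-M3 (0.90), H2-T23 (0.60) and Ctss (0.71) rose in wild-type hearts. Canx (-0.69), Psme1 (-0.78) and Calr (-0.40) fell, and the median of the 20 genes was -0.002. Calr and Canx, chaperones of the endoplasmic reticulum that help class I molecules fold, were also lower in the transgenic sham group than in the wild-type sham group, at -0.51 ± 0.10 (adjusted p = 0.0399) and -0.81 ± 0.10 (adjusted p = 0.00667). After sham 1.4% of all genes differed between genotypes past the test. Canx and Psme1 passed for the interaction, at 0.71 and 0.89, where 4.22% of all genes were higher.

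Markers of several cell types moved in the same comparison as the members. In wild-type hearts 5 of 7 fibroblast markers rose after TAC, as did 3 of 10 measured macrophage and monocyte markers and 4 of 9 endothelial markers. In the same hearts 1 endothelial marker and 7 of 8 cardiomyocyte markers fell. The shares over all genes were 8.86% rising and 12.6% falling. None of the dendritic cell, neutrophil or B cell markers passed, and of 11 T and NK cell markers 1, Cd4, fell. Summed on the linear scale, in units of an array's 75th percentile, the macrophage markers came to 24.3 to 28 on transgenic TAC arrays, 24 to 33.8 on wild-type TAC arrays, 22.7 to 27.0 on transgenic sham arrays and 19.1 to 24.6 on wild-type sham arrays. The fibroblast sums were 134.9 to 152.4, 208.8 to 231.0, 132.4 to 153.9 and 82.6 to 134.3 in the same order of groups. The T and NK cell sums were 7.76 to 9.40, 7.07 to 7.81, 9.90 to 11.2 and 11 to 12.4, and Ncr1 stood above background on 0 arrays. Sums of this kind follow the brightest genes of a list. The mean log2 level of the T and NK cell markers, minus the wild-type sham mean, overlapped between the transgenic groups. It ran from -0.58 to -0.06 on transgenic TAC arrays and from -0.67 to 0.36 on transgenic sham arrays. The wild-type TAC arrays gave -0.67 to -0.35 and the wild-type sham arrays -0.20 to 0.28. Fibroblast markers were also lower in transgenic than in wild-type hearts after TAC for 3 of 7 genes, where 1.91% of all genes were. They passed for the interaction, downwards, for 4 of 7, where 3.07% of all genes did. Cardiomyocyte markers passed for the interaction, upwards, for 5 of 8, where 4.22% of all genes did. What part the cell type markers had in the results on the members was not tested.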

How the data were processed

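Per the file headers, Feature Extraction 10.7.3.1 made the authors' array files, whose processed signal is a background-subtracted intensity with no scaling between arrays. The deposited table is in log2 units with the median of every probe set to 0; it follows the scaled scanner values closely (r at least 0.9998), with its scaling step not stated. The submitters' processing notes name RMA.

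Outlier spots were left out of 43020 non-control spots, replicate spots averaged, and log2 signals set relative to each array's 75th percentile. Gene symbols came from transcript accessions matched with the RefSeq table of GRCm38.p6 (26424 of 39429 probes); the files' annotation names mm9. Probes well above background on at least 3 arrays were kept, the brightest per gene. Groups were compared in limma 3.58.1 under R 4.3.3, with group means fitted over all 12 arrays, 8 residual degrees of freedom, two-sided tests, Benjamini-Hochberg adjustment over 25321 genes. The steps were tested on simulated data. There a log2 change of 1 was called for 42 of 100 changed genes for TAC in wild-type hearts. The count was also 42 of 100 between genotypes after TAC, and it was 18 of 100 for the interaction. A member that did not pass is therefore not shown to be unchanged. The number of arrays limits the precision.

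Members and lists were chosen with earlier results of these data known. Per-array values are given for each comparison's passing members (up to 6 a role group, else the 2 with the smallest p), and for B2m, Irf1, Irf7, Stat2, Psmb8 and Tap1; other listed genes are named up to 4 a list by smallest p, and further ones, such as Gbp4, Cxcl10 and Zbp1, after their values were seen. No pair of arrays was identical. Slides, 5 in all and matching the scans, served as batches. Alternatives covered normalization, background correction, filters, variance model, blocks and each array left out; normexp used median spot signals.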

Additional observations from a re-analysis of the deposited data

Results flagged for a closer look

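Groups of 3 arrays were too small for a test of single outlying arrays. The results listed here are those in which the response to TAC differed between genotypes by the interaction test. Gbp6 responded more in transgenic than in wild-type hearts, by 1.79 on the log2 scale. Stat2 (-0.69), Ifit2 (-1.14) and Oasl2 (-1.02) responded less in transgenic than in wild-type hearts. The 3 transgenic TAC arrays were all below the 3 wild-type TAC arrays for Stat2, Ifit2 and Oasl2, and all above them for Gbp6.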

How the results depend on the processing

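No member passed for TAC in transgenic hearts or for genotype after sham under any of 29 alternatives. The 16 members that passed for TAC in wild-type hearts, all higher, became 9 with normexp background correction, 1 with slide as a fixed block, and 9 to 18 with each array left out in turn; the other settings gave 12 to 23. The 5 that passed between genotypes after TAC became 2 with median scaling, 0 with normexp, 1 without a filter, 9 with probes above background on all 12 arrays, 8 with array weights, 0 with only the groups compared and 0 with slide as a fixed block, and 0 to 5 with each array left out. The 4 that passed for the interaction became 2 with median scaling, 0 with normexp, 8 with normexp and quantile normalization, 1 without a filter, 8 with probes above background on all 12 arrays (27 members left), 7 with a trended robust variance and 0 with slide as a fixed block, and 0 to 5 with each array left out; the cause was not tested. Normexp moved the median of all genes for TAC in wild-type hearts to 0.24, against -0.12 in the fit reported, with the type I interferon genes at 0.88. Leaving out transgenic sham array 2 together with a filter on the other 11 arrays, chosen after seeing the data, gave 17, 5 and 4 calls in these 3 comparisons. The GTPase median for TAC in transgenic hearts, 0.25, ran from -0.0051 without transgenic sham array 3 to 0.48 without transgenic sham array 1. The replicate numbers did not pair the arrays: of 18 same-numbered pairs 4 had a correlation above 0.1 (range -0.388 to 0.22), and 1 of 12 arrays correlated best with its own number. With the replicate number as a block, the counts were 13 for TAC in wild-type hearts, 1 between genotypes after TAC and 1 for the interaction. With slide as a random block they were 14, 4 and 4.

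Signal over background limits 6 members on transgenic sham array 2. Probe sequences and close gene copies were not compared, 5 slides were shared unevenly by the groups, and separate animals are not stated.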
